A study of Mus musculus with 9 samples.

Results

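The genes described here encode the respiratory chain, the ATP synthase and the RNAs of the mitochondrial genome. They were chosen by symbol (mt-, Nduf, Sdh, Uqcr, Cox4 to Cox8, Atp5, Cycs and Cyc1, without pseudogenes), and 114 of the 7197 genes of the table met this rule. Of these, 29 are encoded in mitochondrial DNA and 85 in the nucleus. Their transcripts were measured in neutrophils sorted from bone marrow as CD45+, CD11b+ and Ly6G+ cells of mice aged 2 months, with 5 Rragc+/+ and 4 RragcS74N/+ libraries. The study's text names equal numbers of mice of both genotypes, and RragcS74N/+ libraries beyond these 4 were not analysed here. Rragc encodes RagC, a Rag GTPase that recruits mTORC1 when nutrients are plentiful, and RragcS74N/+ mice carry 1 edited allele for an active form in every tissue, not in neutrophils alone. Whether each library came from 1 mouse is not given in the labels, and p-values measure the spread between these libraries.

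The mouse mitochondrial genome is a small circle that is transcribed from both strands as long precursors. Excision of the tRNAs that lie between the genes releases the rRNAs and mRNAs, most of which are then polyadenylated. Its mRNAs encode core subunits of complexes I, III, IV and V, and all remaining subunits are made in the cytosol from nuclear genes, as is complex II in full. Neutrophils are known for few mitochondria and for making most of their ATP by glycolysis. mTORC1 is known to promote mitochondrial biogenesis in other cells.

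The libraries held 1214295 to 1973957 reads over the listed genes, the fewest in Rragc+/+ replicate 2 and the most in Rragc+/+ replicate 1. The 3 sorting markers (Ptprc, Itgam, Ly6g) summed to 4963 to 5838 normalized counts in Rragc+/+ and 4972 to 6159 in RragcS74N/+. None of the defining early granule (Mpo, Elane, Prtn3, Ctsg, Azu1, Ms4a3), T and NK cell or platelet markers examined was among the genes analysed. Erythroid genes summed to 1091 to 5609 normalized counts in Rragc+/+ and 379 to 2158 in RragcS74N/+. Normalized counts, the unit used throughout, are read counts divided by 1 size factor per library, and they stem from transcript 3′ ends. Rragc itself measured 71.0 ± 10.3 (SD, n = 5) in Rragc+/+, and its level was 65.8 ± 9.52 (SD, n = 4) in RragcS74N/+.

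The 29 mitochondrially encoded genes comprised 7 of 13 annotated mRNAs (mt-Nd1, mt-Nd2, mt-Nd4 and mt-Nd5 of complex I, mt-Cytb of complex III, mt-Co1 of complex IV, mt-Atp8 of complex V), both rRNAs and 20 of 22 tRNAs. The other 8 annotated genes (mt-Co2, mt-Co3, mt-Atp6, mt-Nd3, mt-Nd4l, mt-Nd6, mt-Ts2, mt-Ty) were not analysed here. Nuclear copies of mitochondrial DNA, transferred to the chromosomes in evolution, can share reads with the genuine transcripts. In the GENCODE M21 annotation of GRCm38, 100.0% of the 50-base windows of mt-Co2 occur in a nuclear pseudogene transcript, and 99.5% of mt-Atp6, 99.9% of mt-Co3, 98.0% of mt-Nd3 and 98.8% of mt-Nd4l do. Of the 7 measured mRNAs, mt-Nd4 shares 62.2% of its windows, mt-Co1 51.1%, mt-Nd2 8.19% and mt-Nd5 7.61%, whereas mt-Nd1, mt-Cytb and mt-Atp8 share none. The values of mt-Nd4 and mt-Co1 are therefore uncertain, as the alignment allowed several hits per read and no setting for such reads is given for the HTSeq counting, and the part of these copies in which genes were listed was not tested.

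Transfer RNAs are not an intended product of a 3′-end protocol, since oligo-dT primes on adenine runs and mature tRNAs end in CCA. The following 4 tRNA genes of the plus strand are shown for their different behaviour across libraries, described below, with every run of at least 4 adenines in capitals. Positions are those of the mitochondrial chromosome in GRCm38, where mt-Tm (methionine) lies at chrM:3845-3913, mt-Tg (glycine) at chrM:9391-9458, mt-Tr (arginine) at chrM:9808-9875 and mt-Tt (threonine) at chrM:15289-15355.
mt-Tm: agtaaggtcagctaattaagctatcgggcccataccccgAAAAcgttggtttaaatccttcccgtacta
mt-Tg: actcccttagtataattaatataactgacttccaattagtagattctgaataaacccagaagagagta
mt-Tr: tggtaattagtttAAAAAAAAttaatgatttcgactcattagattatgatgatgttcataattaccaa
mt-Tt: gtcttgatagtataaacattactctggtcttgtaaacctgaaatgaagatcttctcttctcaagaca
The longest adenine run was 8 bases in mt-Tr, 4 in mt-Tm and 3 in mt-Tg and mt-Tt. The read level did not follow it, as mt-Tr averaged 19.7 normalized counts over the 9 libraries against 252 for mt-Tm and 239 for mt-Tg.

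Mitochondrial mRNAs were examined first. mt-Cytb, the cytochrome b of complex III, had 2740, 2169, 2733, 2113 and 4193 normalized counts in Rragc+/+ replicates 1 to 5 and 2105, 3588, 2970 and 5291 in RragcS74N/+ replicates 1 to 4. Libraries of both genotypes were high and low, and the genotypes overlapped over most of their range. The log2 difference, RragcS74N/+ minus Rragc+/+ on the log2(value + 1) scale, was 0.29 with an SE of 0.26 (limma, adjusted p = 0.750).

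mt-Nd1, a core subunit of the membrane arm of complex I, had 1901, 1962, 2310, 1988 and 3497 normalized counts in Rragc+/+ and 1591, 3366, 2272 and 4089 in RragcS74N/+, a log2 difference of 0.23 (SE 0.27, limma, adjusted p = 0.794). mt-Nd5, which lies at the far end of the same arm, had 590, 698, 703, 531 and 966 normalized counts in Rragc+/+ and 520, 1009, 732 and 1281 in RragcS74N/+, a log2 difference of 0.29 (SE 0.25, limma, adjusted p = 0.742). In all 7 mRNAs the same 3 libraries were highest, Rragc+/+ replicate 5 and RragcS74N/+ replicates 2 and 4, and in 6 of 7 the lowest was RragcS74N/+ replicate 1. Among all listed genes 5.88% had those 3 libraries on top and 12.6% had that library lowest.

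The 4 remaining mRNAs had the same libraries on top. mt-Atp8, a membrane subunit of the ATP synthase, differed by 0.27 (limma, adjusted p = 0.794), mt-Co1, the catalytic subunit of complex IV, by 0.24 (adjusted p = 0.753), and mt-Nd2 by 0.06 (adjusted p = 0.958). mt-Nd4 differed by 0.0073, and by -0.00191 when columns were rescaled to the same total, so that the 7 mRNAs did not share a direction under every scaling. Without RragcS74N/+ replicate 4 the log2 differences of mt-Nd2 and mt-Nd4 were -0.15 and -0.14.

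The rRNAs gave most of the mitochondrial reads. mt-Rnr2, the 16S rRNA, held on average 50.3% of them and mt-Rnr1, the 12S rRNA, 18.8%. mt-Rnr2 had 19416, 24908, 27743, 21003 and 28953 normalized counts in Rragc+/+ and 19023, 37511, 22585 and 34935 in RragcS74N/+, and the genotypes overlapped. The log2 differences were 0.18 for mt-Rnr2 (SE 0.23, limma, adjusted p = 0.804) and 0.11 for mt-Rnr1 (SE 0.22, adjusted p = 0.885). RragcS74N/+ replicate 2 was the highest library for both, ahead of replicate 4, which was the highest for most mRNAs.

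The tRNAs followed another order of libraries. mt-Tm, the tRNA for methionine, had 143, 598, 387, 166 and 231 normalized counts in Rragc+/+ replicates 1 to 5 and 178, 154, 188 and 222 in RragcS74N/+. Rragc+/+ replicates 2 and 3 stood above every other library, while the 4 RragcS74N/+ libraries lay close together within the Rragc+/+ range. The log2 difference of -0.52 had an SE of 0.35 (limma, adjusted p = 0.718) and was -0.22 without Rragc+/+ replicate 2.

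mt-Tp, the proline tRNA, is encoded on the opposite strand and had 14.5, 189, 97.5, 30.5 and 35.1 normalized counts in Rragc+/+ against 41.1, 33.5, 43.7 and 40.8 in RragcS74N/+. mt-Ts1, a serine tRNA of the same strand whose gene overlaps the end of mt-Co1, had 31.0, 306, 137, 56.3 and 57.1 in Rragc+/+ and 86.9, 91.5, 37.7 and 84.6 in RragcS74N/+. The highest library was 13.1-fold above the lowest for mt-Tp and 9.89-fold for mt-Ts1, against 1.97-fold for mt-Rnr2 and 2.07-fold to 3.06-fold for the mRNAs. Rragc+/+ replicates 2 and 3 were the 2 highest libraries for 13 of 20 tRNAs, and Rragc+/+ replicate 1 was the lowest for 15 of 20. Replicate 2 was the highest for 15 of 20, against 25.1% of all listed genes, and 11.3% of all listed genes had replicate 1 lowest. The 2 monocyte and macrophage markers analysed of 5 examined (Csf1r, Adgre1) summed to 390 and 233 normalized counts in Rragc+/+ replicates 2 and 3. Elsewhere they summed to 108 to 203. Csf1r set this order, at 339 and 189 in those 2 libraries. Adgre1 had 51.4 and 44.1 there and was highest in RragcS74N/+ replicate 1 (52.4). The part of such cells in the tRNA values was not tested. Both strands were involved, as 6 of the 7 tRNAs of the minus strand had those 2 libraries on top.

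mt-Tt, the threonine tRNA, which directly follows mt-Cytb on the same strand, was an exception. It had 101, 119, 129, 134 and 191 normalized counts in Rragc+/+ and 78.2, 154, 139 and 221 in RragcS74N/+, highest in RragcS74N/+ replicate 4 and Rragc+/+ replicate 5 as the mRNAs were. mt-Ti, the isoleucine tRNA, which overlaps the end of mt-Nd1, had 24.4, 14.0, 30.0, 19.3 and 44.1 in Rragc+/+ and 14.6, 33.5, 22.6 and 42.8 in RragcS74N/+, with the same 3 libraries on top as the mRNAs. Both lie at the 3′ end of an mRNA gene. Reads of an uncut or neighbouring mRNA cannot be told apart from reads of the tRNA in these counts. Other tRNA genes share this position but not this order of libraries. mt-Tw, which overlaps the end of mt-Nd2, was highest in Rragc+/+ replicate 2. So were mt-Tg, mt-Tr and mt-Th, which follow mt-Co3, mt-Nd3 and mt-Nd4.

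Within Rragc+/+ the median SD of the 19 tested tRNAs was 0.98 on the log2 scale, against 0.32 within RragcS74N/+, and this difference in spread was not tested. The 2 libraries that set it, Rragc+/+ replicates 2 and 1, also had the fewest and the most reads, and the part of depth in the tRNA values was not tested. All 19 overlapped between genotypes, with log2 differences from -0.52 (mt-Tm) to 0.53 (mt-Tf), of which 8 were above 0 and 11 below. Among those below, mt-Tv, mt-Ta, mt-Tl1, mt-Th and mt-Tn differed by -0.47, -0.41, -0.40, -0.38 and -0.37. Without Rragc+/+ replicate 2 these values were -0.13, -0.041, -0.037, -0.11 and -0.11. mt-Tk averaged 8.56 normalized counts and was under the limit of 10 for testing. The map of mitochondrially encoded genes by library shows the block of high tRNA values in 2 Rragc+/+ columns beside the mRNA pattern above it.

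**Figure D1:**
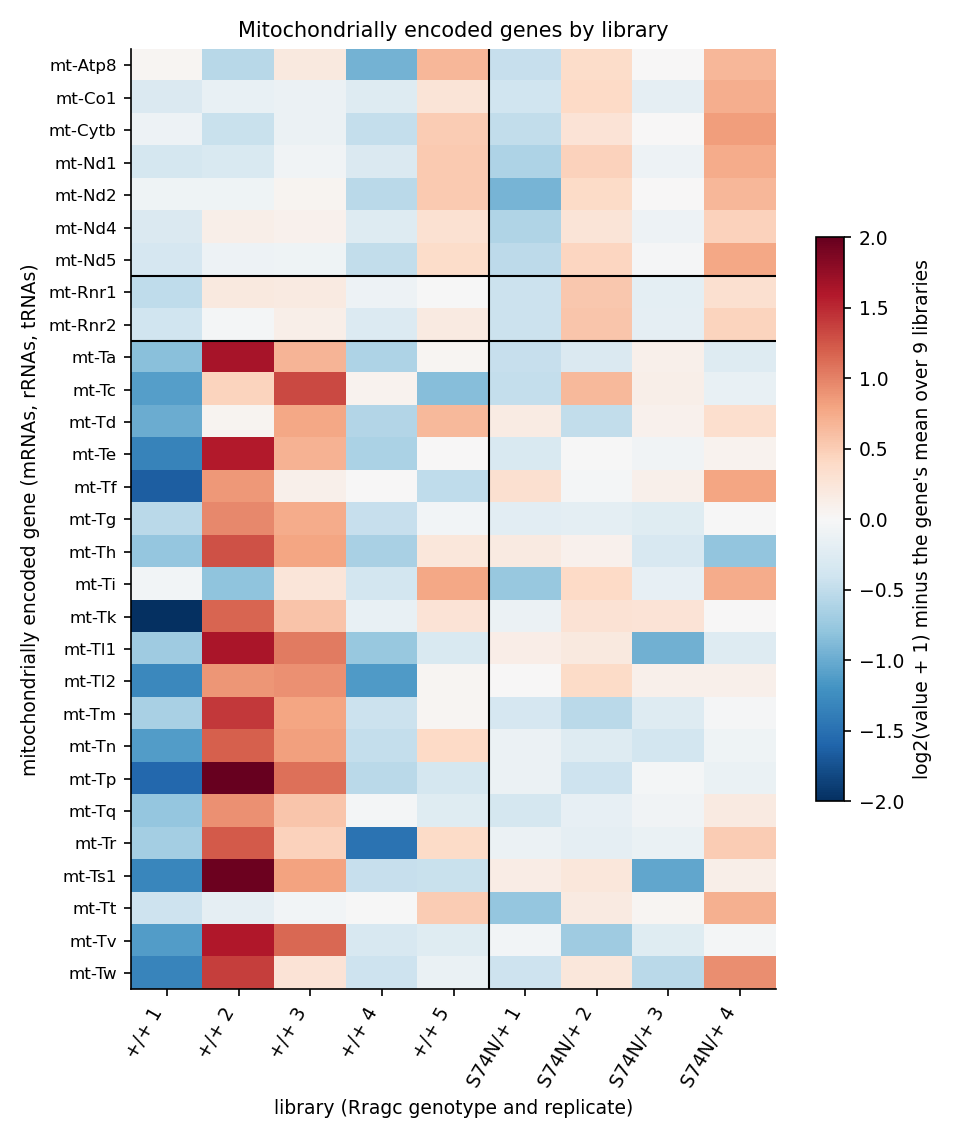
Each row is 1 mitochondrially encoded gene (7 mRNAs, 2 rRNAs and 20 tRNAs from top to bottom) and each column 1 library; colour gives log2(value + 1) minus the gene's mean over the 9 libraries, and values beyond 2 take the end colours. Most tRNA rows are red in Rragc+/+ replicates 2 and 3 (17 and 18 of the 19 tested lie above their mean) and blue in replicate 1, and the mRNA rows are red in Rragc+/+ replicate 5 and RragcS74N/+ replicates 2 and 4.

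Mitochondrially encoded and nuclear-encoded genes were then compared. The 7 mRNAs held 0.910%, 0.900%, 1.02%, 0.883% and 1.34% of the reads of the listed genes in Rragc+/+ replicates 1 to 5 and 0.783%, 1.25%, 1.06% and 1.48% in RragcS74N/+ replicates 1 to 4. The 85 nuclear-encoded genes held 1.46%, 1.41%, 1.43%, 1.52% and 2.01% in Rragc+/+ and 1.29%, 1.70%, 1.57% and 2.08% in RragcS74N/+. Both were high in Rragc+/+ replicate 5 and RragcS74N/+ replicate 4 and lowest in RragcS74N/+ replicate 1. In bulk samples, fewer cells of a type and less RNA per cell cannot be told apart.

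The ratio between them was then compared. Mitochondrial mRNA reads per nuclear-encoded read numbered 0.645 ± 0.0505 in Rragc+/+ (SD, n = 5) and 0.684 ± 0.0572 in RragcS74N/+ (SD, n = 4), and the highest library was 1.27-fold above the lowest. The genotypes overlapped, since the ratio was 0.622, 0.638, 0.717, 0.582 and 0.666 in Rragc+/+ and 0.608, 0.739, 0.674 and 0.715 in RragcS74N/+. tRNA reads per 100 mitochondrial mRNA reads ranged over 3.86-fold, from 6.55 in Rragc+/+ replicate 1 to 25.3 in replicate 2, and they were 6.76 to 12.1 in RragcS74N/+. rRNA reads per mRNA read were 2.51 ± 0.349 (SD, n = 5) and 2.50 ± 0.357 (SD, n = 4).

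All 29 mitochondrially encoded genes together held 3.64% ± 0.504 of the Rragc+/+ reads (SD, n = 5) and 4.06% ± 0.913 of the RragcS74N/+ reads (SD, n = 4). The nuclear-encoded genes held 1.57% ± 0.251 (SD, n = 5) and 1.66% ± 0.328 (SD, n = 4). Both differences were smaller than the SD within either genotype. Without RragcS74N/+ replicate 4 the nuclear-encoded share was 0.048 percentage points lower in RragcS74N/+ instead of 0.092 higher.

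**Figure D2:**
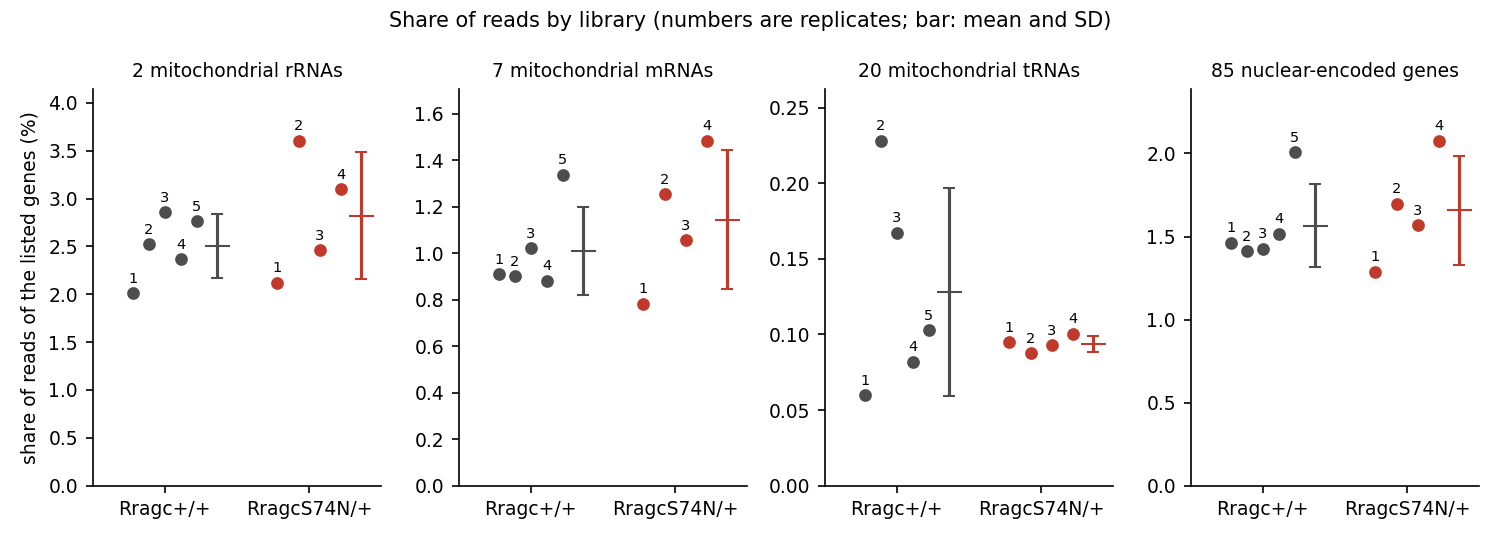
Points give the share of the reads of all listed genes (%, linear axes from 0) held by mitochondrial rRNAs, mRNAs and tRNAs and by the nuclear-encoded genes in each library, numbered by replicate; the bar is the mean and SD of each genotype. Genotypes overlap in every panel, RragcS74N/+ replicate 4 is the highest library for mRNAs and nuclear-encoded genes, and Rragc+/+ replicate 2 is the highest for tRNAs at 0.228%.

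No member differed between genotypes after adjustment. Of the 110 members that averaged 10 or more normalized counts, 0 passed an adjusted p of 0.05 in limma, edgeR or DESeq2, as did 0.0% of all 6673 genes tested in limma. At an unadjusted p under 0.05, limma called 1 of 110 (0.909%), Ndufaf7, which was lower, against 5.81% of all genes tested in either direction and 3.81% lower, while edgeR and DESeq2 called 2 of 110 each, against 6.89% and 6.70% of all genes. edgeR called Cox7a2l and Ndufaf7, and DESeq2 called Cox7a2l and Cox8a, all lower in RragcS74N/+. The genotypes were free of overlap in 0 of 110 members, against 1.69% of all genes.

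The median log2 difference was 0.050 over the 28 tested mitochondrially encoded genes and 0.0095 over the 82 nuclear-encoded ones, beside 0.024 over all genes tested. The first median joined 7 mRNAs with a median of 0.24, 2 rRNAs with 0.15 and 19 tRNAs with -0.19. In the main test the 7 mRNAs and both rRNAs were all above 0, and 11 of 19 tRNAs were below 0. mt-Nd4 was below 0 under the rescaling given above. mt-Nd2, mt-Nd4 and mt-Rnr1 were below 0 when certain single libraries were left out. The mitochondrial and nuclear medians differed by 0.041. A related quantity was taken per library, the median deviation of each kind of gene from its mean over all libraries. Between genotypes it differed by -0.055 for mitochondrially encoded and 0.057 for nuclear-encoded genes, so that the order of the 2 kinds was reversed. The mitochondrial minus nuclear value of a library had a pooled SD within genotypes of 0.538. Of the 28 and 82 genes, 17 and 43 were above 0, which is 60.7% and 52.4%, against 53.4% of all genes. The median 95% confidence interval of a member reached 0.54 on either side of its log2 difference.

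**Figure D3:**
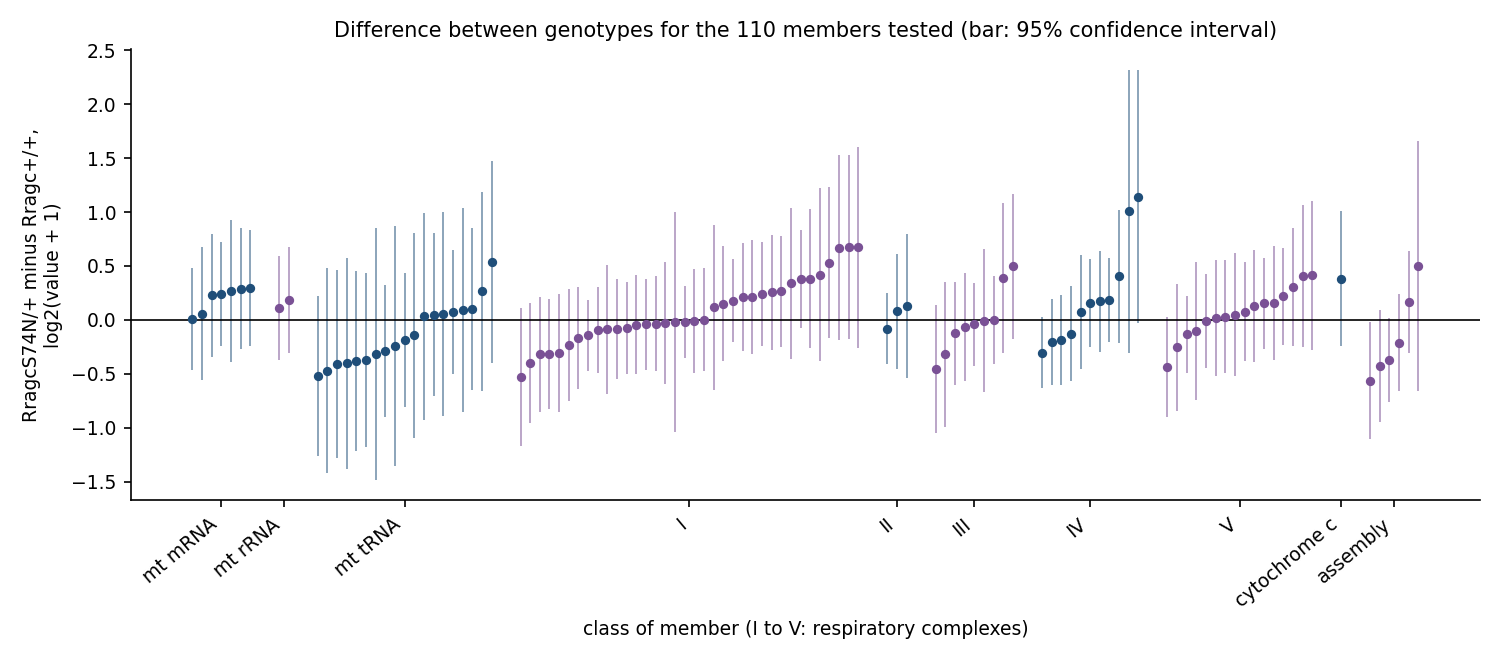
Points give the log2 difference of each of the 110 tested members, RragcS74N/+ minus Rragc+/+ on the log2(value + 1) scale, sorted within its class, with the 95% confidence interval as a bar. The mitochondrial mRNAs lie at 0.29 or below, and only the interval of Ndufaf7 leaves out 0. mt-Nd4 changes sign when columns are rescaled, and mt-Nd2, mt-Nd4 and mt-Rnr1 do when certain single libraries are left out.

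Complex I oxidises NADH and passes its electrons to coenzyme Q. Of its 36 tested nuclear-encoded subunits, 17 were above and 19 below 0, with a median log2 difference of -0.014. Ndufb1, a small accessory subunit of the membrane arm and the member of complex I with the most reads, had 1095, 328, 941, 564 and 1716 normalized counts in Rragc+/+ and 837, 1414, 1077 and 2074 in RragcS74N/+. Rragc+/+ replicate 2 was the lowest library, and all RragcS74N/+ libraries but the highest lay within the Rragc+/+ range. The log2 difference was 0.67 (SE 0.40, limma, adjusted p = 0.713), and 0.35 without Rragc+/+ replicate 2.

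Ndufb3, another accessory subunit of that arm, had the same pattern, with 259, 64.3, 131, 112 and 298 normalized counts in Rragc+/+ and 153, 238, 216 and 404 in RragcS74N/+, a log2 difference of 0.67 (SE 0.40, limma, adjusted p = 0.713). Ndufc2 differed by 0.53 and Ndufb6 by 0.38. In contrast, Ndufv1, the flavoprotein that takes electrons from NADH, had 25.03, 46.7, 22.5, 29.7 and 26.1 normalized counts in Rragc+/+ and 25.2, 26.4, 21.8 and 10.5 in RragcS74N/+, a log2 difference of -0.53 (SE 0.30, limma, adjusted p = 0.713). Here Rragc+/+ replicate 2 was the highest library.

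Most assembly factors do not stay in the finished complex. Of the 6 tested that the symbol rule took in, with Cox7a2l counted among them, 2 were above and 4 below 0, with a median of -0.29. Ndufaf7, a methyltransferase needed to build the complex, had 26.3, 21.0, 19.7, 12.9 and 21.1 normalized counts in Rragc+/+ and 13.9, 11.2, 13.6 and 13.6 in RragcS74N/+. Rragc+/+ replicate 4 lay within the RragcS74N/+ range, and the other 4 Rragc+/+ libraries lay above it. The log2 difference was -0.56 (SE 0.25, limma, adjusted p = 0.713). Ndufaf3 differed by -0.43 and overlapped as well.

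Complex II, which also acts in the tricarboxylic acid cycle, is encoded in the nucleus alone. Sdha, its flavoprotein, had 124, 110, 121, 139 and 119 normalized counts in Rragc+/+ and 121, 119, 117 and 107 in RragcS74N/+. The highest library was 1.30-fold above the lowest, and the log2 difference was -0.081 (SE 0.15, limma, adjusted p = 0.874). Sdhb, the iron-sulphur subunit, and Sdhc, a membrane anchor, differed by 0.079 and 0.13, while Sdhd, the other anchor, averaged 8.49 normalized counts and was not tested.

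Complex III passes electrons from coenzyme Q to cytochrome c, and of its 9 tested genes 3 were above and 6 below 0, with a median of -0.043. Uqcrh, the hinge protein, had 543, 689, 570, 580 and 860 normalized counts in Rragc+/+ and 459, 793, 436 and 875 in RragcS74N/+ (log2 difference -0.066, SE 0.23). Cyc1, the cytochrome c1 of complex III, had 15.8, 18.7, 17.8, 16.9 and 20.1 in Rragc+/+ and 6.63, 13.2, 19.6 and 21.9 in RragcS74N/+, where replicate 1 was lowest and the log2 difference was -0.32 (SE 0.31, limma, adjusted p = 0.767). Cycs, the mobile cytochrome c, had 68.5, 61.9, 52.5, 84.4 and 136 in Rragc+/+ and 63.0, 125, 86.6 and 144 in RragcS74N/+, a log2 difference of 0.38 (SE 0.29, limma, adjusted p = 0.734). Its high libraries were those of the mitochondrial mRNAs.

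Complex IV reduces oxygen to water. Of its 11 tested genes, 7 were above and 4 below 0, with a median log2 difference of 0.16, and it held the largest differences among the members. Ndufa4, named for complex I but known as a subunit of complex IV, had 126, 24.5, 67.5, 91.6 and 325 normalized counts in Rragc+/+ and 115, 228, 180 and 360 in RragcS74N/+. Rragc+/+ replicate 2 stood lowest and Rragc+/+ replicate 5 was above 3 of 4 RragcS74N/+ libraries. The log2 difference was 1.14 (SE 0.55, limma, adjusted p = 0.713), it was 0.68 without Rragc+/+ replicate 2, and 1.60 without Rragc+/+ replicate 5.

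Cox7c, a small structural subunit, had 350, 38.6, 140, 96.5 and 558 normalized counts in Rragc+/+ and 180, 333, 279 and 640 in RragcS74N/+, a log2 difference of 1.01 (SE 0.61, limma, adjusted p = 0.713). Its highest library was 16.6-fold above its lowest. Without Rragc+/+ replicate 2 the difference was 0.50. Cox6c, the complex IV gene with the most reads, differed by 0.17 (SE 0.22).

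Cox8a, another structural subunit, lay on the other side, with 689, 883, 861, 771 and 774 normalized counts in Rragc+/+ and 550, 613, 682 and 733 in RragcS74N/+. Rragc+/+ replicate 1 was the only Rragc+/+ library within the RragcS74N/+ range. The log2 difference was -0.31 (SE 0.15, limma, adjusted p = 0.713), and 0.016 once each library's trend on the base composition of 3′ ends was removed. Cox7a2l, which helps complexes III and IV join into supercomplexes, was counted with the assembly factors above. It had 395, 424, 338, 319 and 262 in Rragc+/+ and 237, 322, 233 and 275 in RragcS74N/+ (log2 difference -0.37, SE 0.18, limma, adjusted p = 0.713).

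Several complex IV subunits exist in a widespread form and a form of muscle or other tissues. The widespread forms Cox4i1, Cox6a1, Cox6b1, Cox7a2 and Cox8a were measured, and their partners Cox4i2, Cox6a2, Cox6b2, Cox7a1 and Cox8b were not among the genes analysed. Cox4i1 had 231 ± 28.7 normalized counts in Rragc+/+ (SD, n = 5) and 207 ± 51.7 in RragcS74N/+ (SD, n = 4), and Cox7a2 had 1053 ± 261 (SD, n = 5) and 1142 ± 427 (SD, n = 4). Cox6a1 and Cox6b1 differed by -0.20 and -0.13 on the log2 scale. None of the 5 passed an unadjusted p of 0.05 in limma.

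Complex V makes ATP from the proton gradient. Of its 16 tested genes, 11 were above and 5 below 0, with a median of 0.062. Atp5mpl, a small membrane subunit with the most reads of the complex, had 645, 665, 725, 792 and 1218 normalized counts in Rragc+/+ and 650, 1285, 752 and 1414 in RragcS74N/+ (log2 difference 0.30, SE 0.26, limma, adjusted p = 0.741), again highest in the libraries where mitochondrial mRNAs were high. Atp5d, the delta subunit of the ATP synthase, had 45.4, 61.9, 44.1, 38.6 and 39.1 in Rragc+/+ and 25.2, 34.6, 43.7 and 31.4 in RragcS74N/+ (log2 difference -0.44, SE 0.22, limma, adjusted p = 0.713). The inhibitor Atp5if1 was not among the genes analysed.

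**Figure D4:**
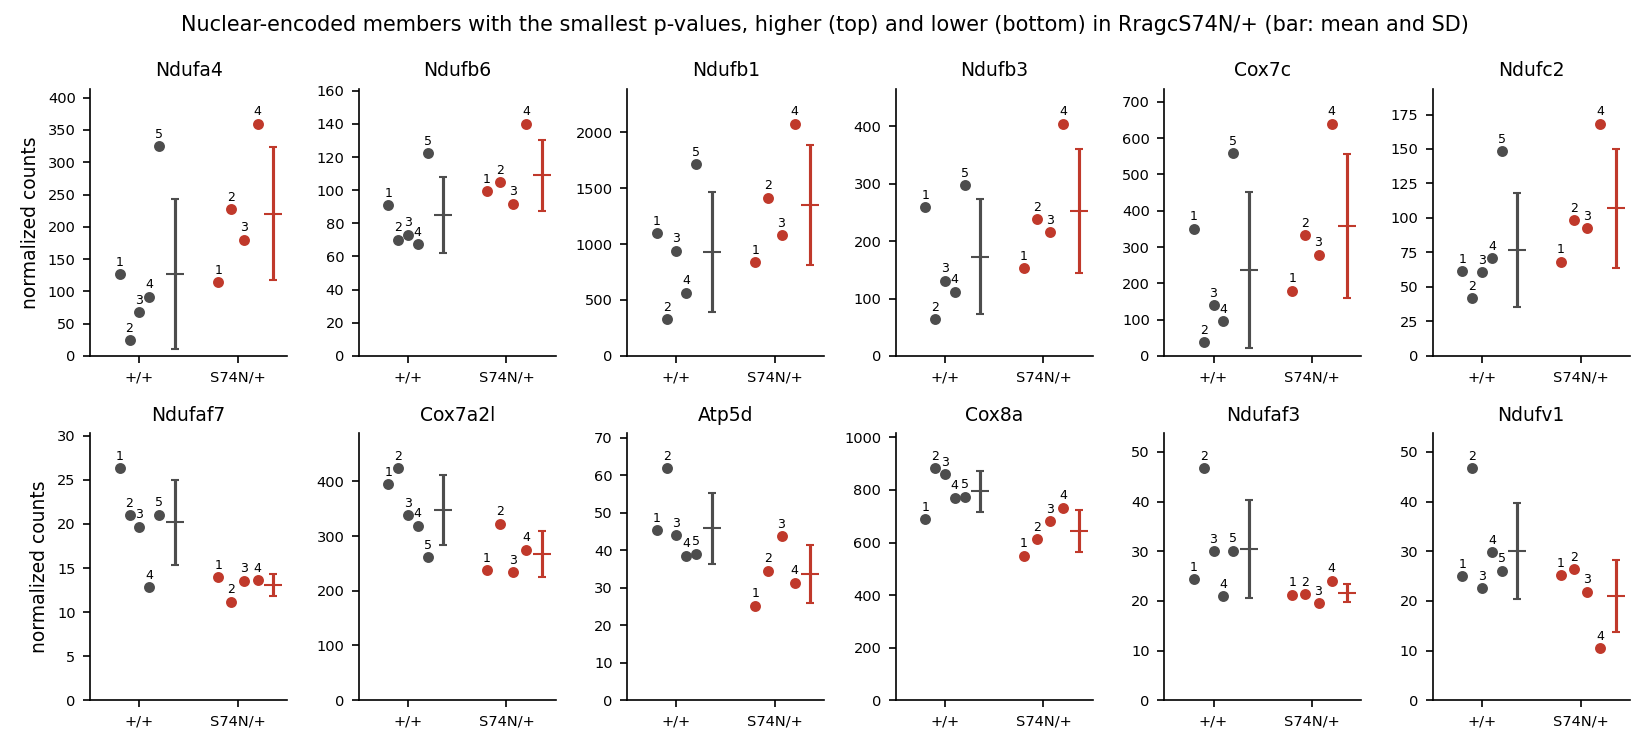
Points give normalized counts (linear axes from 0) of the nuclear-encoded members with the smallest p-values, 6 higher (top row) and 6 lower (bottom row) in RragcS74N/+, numbered by replicate, with the mean and SD of each genotype as a bar. Genotypes overlap in every panel, Rragc+/+ replicate 5 is high in each upper panel, and Rragc+/+ replicate 2 is lowest for Ndufa4, Ndufb1, Ndufb3, Cox7c and Ndufc2.

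The base composition of the 3′ end moved with these differences. The 30 nuclear-encoded members whose last 500 transcript bases held at most 43.8% GC had a median log2 difference of 0.20, and 23 of 30 (76.7%) were above 0. The 29 with at least 50.4% GC had a median of -0.085, and 6 of 29 (20.7%) were above 0. All tested genes split the same way, with 70.0% of 3580 low-GC genes and 21.7% of 1383 high-GC genes above 0. Members and other genes thus showed the same order.

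By library, the low-GC members lay -0.36 from their mean level in Rragc+/+ replicate 2 and the high-GC members 0.21, both as medians on the log2 scale. In RragcS74N/+ replicate 4 both lay above, at 0.59 and 0.36, and in RragcS74N/+ replicate 1 both lay below, at -0.28 and -0.51. Across the 82 members, Spearman's rho between 3′ GC content and the deviation of a library ranged from -0.41 in RragcS74N/+ replicate 1 to 0.53 in Rragc+/+ replicate 2, and it was 0.32 and 0.38 in Rragc+/+ replicates 3 and 4. It was below 0 in all 4 RragcS74N/+ libraries, where it was closest to 0 in replicate 3 (-0.055), and also in Rragc+/+ replicates 1 and 5. These members share the library, and genes are not independent replicates. The trend on 3′ GC was then taken out of each library, a step added after the data were seen. It was taken out for nuclear genes only, and mitochondrially encoded members kept their log2 differences. In this run 1 of 110 members (Ndufaf7) had an unadjusted p under 0.05 in limma, against 3.88% of all genes. The median of the nuclear-encoded genes was 0.14 in this run, beside 0.012 over all genes tested. It thus lay above the unchanged median of the mitochondrially encoded genes, 0.050. In the main test it lay below that median, at 0.0095.

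**Figure D5:**
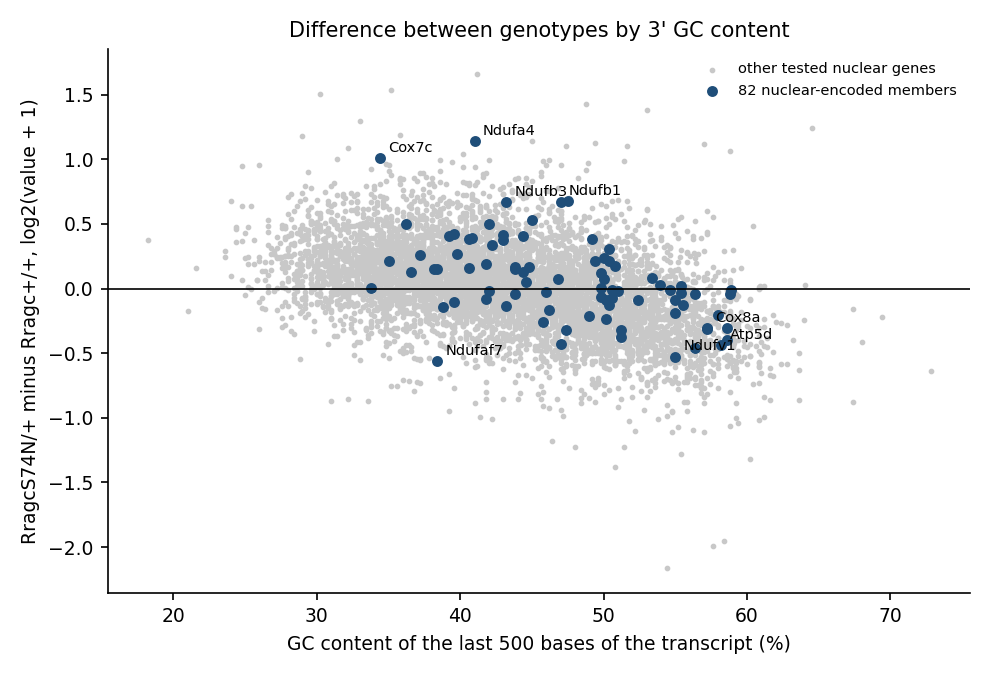
Each point is 1 tested nuclear gene, with the GC content of the last 500 bases of its transcript (%) on the x axis and its log2 difference, RragcS74N/+ minus Rragc+/+, on the y axis; the 82 nuclear-encoded members are blue and other genes grey. Members at or below 43.8% GC lie mostly above 0 (23 of 30) and members at or above 50.4% GC mostly below 0 (23 of 29), as the grey points do.

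Markers of another cell type and other gene groups were high in the same libraries. Prg2 and Epx, granule proteins of eosinophils, were 2 of the 4 eosinophil and basophil markers examined that were analysed. They summed to 100 normalized counts in Rragc+/+ replicate 5, 172 in RragcS74N/+ replicate 2 and 187 in RragcS74N/+ replicate 4, against 12.2 to 36.2 in the other 6 libraries. These 3 libraries were the top 3 for every mitochondrial mRNA, and the part of eosinophils in the members' levels was not tested.

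The 83 cytosolic ribosomal protein genes held 4.82% of reads in Rragc+/+ replicate 5 and 4.89% in RragcS74N/+ replicate 4, and 3.09% to 3.88% in the other libraries, with the lowest share in RragcS74N/+ replicate 1. The 54 mitochondrial ribosomal protein genes likewise held 0.406% and 0.453% against 0.297% to 0.365%. Genes outside the respiratory chain were thus high in those 2 libraries too. The 7 secondary granule genes summed to 33606 normalized counts in Rragc+/+ replicate 5 and 34865 in RragcS74N/+ replicate 4, and 21518 in RragcS74N/+ replicate 1. They did not move as a group, since Camp reached 12861 and 13514 in the first and second of these libraries, whereas Ltf (2484) and Lcn2 (3819) were lower in Rragc+/+ replicate 5 than in the other Rragc+/+ libraries. The 8 cell cycle genes summed to 848, 696 and 416 in the same order, and to 740 in RragcS74N/+ replicate 3. The 8 mature neutrophil genes were also highest in RragcS74N/+ replicates 4 (51884) and 2 (49697), beside 45045 in Rragc+/+ replicate 5 and 36149 in RragcS74N/+ replicate 1. Whether maturity of the cells had a part in the members' levels was not tested.

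The promoters of the nuclear-encoded members were read from RefSeq (GRCm38.p6, 250 bases before to 50 after each start), and 72 of 85 members were matched. Nuclear respiratory factor 1 (NRF1), GABP and YY1 are transcription factors known for respiratory genes. Exact matches on either strand were sought for the NRF1 consensus with 1 free base, for CCGGAAGT (GABP) and for AAGATGGCG (YY1). Members and other listed genes were counted by gene, where a match in any promoter of the gene sufficed. The share of all promoters was counted by promoter and is thus not on the same footing. The NRF1 letters stood in 17 of 72 members (23.6%), against 12.99% of 5612 other listed genes and 4.60% of all 32851 promoters. The YY1 letters stood in 8 (11.1%, against 4.31% and 1.40%) and the GABP letters in 5 (6.94%, against 11.1% and 3.89%).

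2 members held 2 of the motifs, and their promoters are shown with the motifs in capitals, each 5′ to 3′ on the strand of its gene. Atp5h, a stalk subunit of the ATP synthase, lies on the minus strand at chr11:115419870-115420169, with the NRF1 letters first and the GABP letters second, both in reverse orientation. Ndufs6, a zinc-binding subunit of complex I, lies on the minus strand at chr13:73328433-73328732, with the NRF1 letters first and the YY1 letters second.
Atp5h: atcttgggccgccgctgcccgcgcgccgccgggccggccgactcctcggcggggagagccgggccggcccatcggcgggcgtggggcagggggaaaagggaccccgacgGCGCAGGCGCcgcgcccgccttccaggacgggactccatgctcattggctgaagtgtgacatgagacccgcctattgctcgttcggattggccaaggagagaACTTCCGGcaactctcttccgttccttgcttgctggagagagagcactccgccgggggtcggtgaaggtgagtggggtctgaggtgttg
Ndufs6: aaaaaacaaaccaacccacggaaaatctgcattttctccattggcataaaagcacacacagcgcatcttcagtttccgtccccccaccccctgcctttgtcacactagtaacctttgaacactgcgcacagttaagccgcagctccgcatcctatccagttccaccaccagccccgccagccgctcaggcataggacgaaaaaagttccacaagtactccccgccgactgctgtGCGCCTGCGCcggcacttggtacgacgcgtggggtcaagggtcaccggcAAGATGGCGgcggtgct
Atp5h differed by 0.078 (SE 0.22) and Ndufs6 by -0.17 (SE 0.22) between genotypes on the log2 scale. The 16 tested members with the NRF1 letters had a median log2 difference of 0.097 and the 53 matched members without them 0.016, and neither held a member past an adjusted p of 0.05. The medians with and without the letters were -0.037 and 0.074 for GABP (4 and 65 members) and -0.0069 and 0.074 for YY1 (8 and 61 members).

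Genes that build and serve the chain were examined last, in 6 lists. None of the 77 tested genes passed an adjusted p of 0.05 in limma, edgeR or DESeq2, and 3 had an unadjusted p under 0.05 in limma, which is 3.90% against the 5.81% of all genes. Among 22 tested assembly factors outside the symbol rule, 1 passed that unadjusted limit. Cox14, a complex IV assembly factor, had 280, 493, 404, 297 and 335 normalized counts in Rragc+/+ and 222, 217, 256 and 304 in RragcS74N/+ (log2 difference -0.51, SE 0.20, limma, adjusted p = 0.713).

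Among 12 tested genes for expression of the mitochondrial genome, the 1 past that limit was Polg, the DNA polymerase of mitochondria. It had 30.3, 17.5, 16.9, 26.5 and 23.1 normalized counts in Rragc+/+ and 35.1, 35.6, 33.1 and 31.4 in RragcS74N/+, without overlap (log2 difference 0.58, SE 0.22, limma, adjusted p = 0.713). It was the 1 gene of these 12 without overlap, beside 1.69% of all genes tested. Tfam, a factor that packages mitochondrial DNA and serves its transcription, averaged 16.4 in Rragc+/+ and 15.1 in RragcS74N/+. None of 15 tested regulators of mitochondrial biogenesis passed, and the smallest p-value was that of Gabpb2, a GABP subunit (log2 difference 0.31, SE 0.21, adjusted p = 0.722).

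Of 16 tested genes of pyruvate dehydrogenase and the tricarboxylic acid cycle, Mdh2, the mitochondrial malate dehydrogenase, had 611, 816, 684, 870 and 630 normalized counts in Rragc+/+ and 443, 609, 583 and 449 in RragcS74N/+, without overlap (log2 difference -0.47, SE 0.17, limma, adjusted p = 0.713). Dlst, a subunit of the oxoglutarate dehydrogenase complex, was the other gene of this list without overlap and was higher in RragcS74N/+ (limma, adjusted p = 0.714). These were 2 of 16 genes, beside 1.69% of all genes tested, and whether the lists differ from all genes in this was not tested. 0 of 9 carriers and porins and 0 of 3 coenzyme Q genes passed the unadjusted limit. Ucp2, an inner membrane carrier of the uncoupling protein family, differed by -0.55 (SE 0.27, adjusted p = 0.713) and Coq8b, needed for coenzyme Q synthesis, by -0.30 (SE 0.31, adjusted p = 0.777). Ucp2 was highest in Rragc+/+ replicate 2, at 505 normalized counts against 143 to 290 elsewhere.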

How the data were processed

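RNA of sorted neutrophils was sequenced from 3′ ends after oligo-dT priming. Per the methods and processing notes, TopHat2 2.0.10 and Bowtie 1.0.0 placed reads on GRCm39, and the authors counted them by strand with HTSeq 0.6.1 over GENCODE genes and deposited the signal, counts divided by a DESeq2 size factor. Collapsing of molecular identifiers and the filter behind the 7197 listed genes are not given in the sources used here. Whole reads were recovered from 100.0% of values (tolerance 0.01).

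Samples were grouped by the labels. Main tests used limma 3.58.1 (R 4.3.3, trended variance) on log2(value + 1) over the 6673 genes averaging 10 or more normalized counts, with Benjamini-Hochberg adjustment at 0.05, two-sided. edgeR 4.0.16 and DESeq2 1.42.0 on recovered reads, other pseudocounts, filters, scalings and weights, and leaving out each library were alternatives. Removing each library's 3′ GC trend was among those chosen after seeing the data. The test was checked on simulated data. Same-genotype libraries differed beyond sampling noise (chi-square per degree of freedom at least 5.47 over 16 pairs).

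Named with values were the mitochondrially encoded members, the 6 nuclear-encoded members with the smallest p in each direction, the member with the highest mean in each complex, Cycs, Cyc1, the Cox paralogs, Sdha to Sdhd, Atp5if1, Rragc and, in each related list, the gene with the smallest p. Atp5h, Ndufs6, Tfam and Dlst were chosen after their values were seen. Members and lists were chosen with earlier results of these data known. Read totals cover counting error only.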

Additional observations from a re-analysis of the deposited data

Results flagged for a closer look

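Within each genotype, the highest or lowest library was compared with its nearest neighbour by Dixon's ratio, the gap divided by the whole range. Of 140 groups tested 9 passed the 95% critical value, and chance alone flags about 1 in 20. In 5 of the 9, Rragc+/+ replicate 5 stood high. The ratio was 0.740 for mt-Co1 (3184 normalized counts against 2441 in the next library), 0.743 for mt-Nd1 (3497 against 2310), 0.730 for Ndufc2 (148 against 70.7), 0.744 for Atp5mpl (1218 against 792) and 0.822 for the share of reads in nuclear-encoded genes (2.01% against 1.52%).

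Within RragcS74N/+, replicate 4 stood high for mt-Tg with a ratio of 0.834 (225 normalized counts against 196) and for mt-Tr with 0.932 (25.1 against 15.9). Replicate 3 stood low for mt-Ts1 with 0.873 (37.7 against 84.6), and replicate 2 stood low for Ndufaf7 with 0.866 (11.2 against 13.6).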

How the results depend on the processing

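Samples carry no replicate number in their labels, and the replicate numbers used here follow sample order within each genotype. They do not pair libraries between genotypes, so no paired analysis was run. No member and no other gene passed an adjusted p of 0.05 under any alternative run. The number of members at an unadjusted p under 0.05 was 1 in the main test, 0 when genes averaging under 50 were dropped (5.50% of all genes passed), 12 with array quality weights (11.5%), 2 with edgeR (6.89%) and 2 with DESeq2 (6.70%). Leaving out 1 library moved it from 0 without Rragc+/+ replicate 2 or 3 (3.01% and 3.36% of all genes) to 13 without Rragc+/+ replicate 5 (13.7%), with 7 without Rragc+/+ replicate 1 (9.64%), 2 without Rragc+/+ replicate 4 (4.83%) and 5 without RragcS74N/+ replicate 1 (4.68%). The calls of the main test, edgeR and DESeq2 were all lower in RragcS74N/+. With array quality weights 10 of 12 were higher, and without Rragc+/+ replicate 5, 11 of 13 were. Without RragcS74N/+ replicate 1, 4 of 5 were higher, whereas without Rragc+/+ replicate 1, 5 of 7 were lower. The cause of these changes in number and direction was not tested. Size factors, rescaled totals and TMM moved the median of all genes by at most 0.03.

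Small log2 differences changed sign under some alternatives, and the cause was not tested. The value of mt-Nd4 was -0.00191 with columns rescaled to the same total, and that of mt-Tr was -0.018 with a pseudocount of 5. Array quality weights gave -0.030 for mt-Tc, -0.11 for mt-Td and 0.056 for Uqcrh. With edgeR the values were -0.16 for mt-Tc, -0.056 for mt-Td, -0.19 for mt-Tr and -0.047 for mt-Tw, and with DESeq2 -0.15 for mt-Tc, -0.056 for mt-Td, -0.20 for mt-Tr and -0.048 for mt-Tw. Removing the 3′ GC trend, chosen after seeing the data, gave 0.016 for Cox8a, 0.063 for Uqcrh, 0.075 for Cox4i1, 0.14 for Cox6a1, 0.016 for Cox6b1 and 0.079 for Coq8b.

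Leaving out each library in turn changed the sign of 21 named genes. Their log2 differences ranged from -0.29 to 0.039 for Cox6b1, -0.13 to 0.24 for Cox7a2, -0.52 to 0.0056 for Cyc1, -0.15 to 0.0011 for Rragc, -0.10 to 0.25 for Sdhb, -0.083 to 0.38 for Sdhc and -0.24 to 0.10 for Uqcrh. Among mRNAs and rRNAs they ranged from -0.15 to 0.38 for mt-Nd2, -0.14 to 0.21 for mt-Nd4 and -0.053 to 0.27 for mt-Rnr1, and among tRNAs from -0.21 to 0.39 for mt-Tc, -0.20 to 0.25 for mt-Td, -0.49 to 0.24 for mt-Te, -0.13 to 0.37 for mt-Ti, -0.027 to 0.52 for mt-Tl2, -0.74 to 0.16 for mt-Tp, -0.40 to 0.023 for mt-Tq, -0.33 to 0.34 for mt-Tr, -0.60 to 0.22 for mt-Ts1, -0.15 to 0.34 for mt-Tt and -0.23 to 0.45 for mt-Tw. Each of these ranges holds 0. With 5 and 4 libraries, the 95% confidence interval reached 0.54 on either side for a median member and 0.92 for a median tRNA.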
